A study of Homo sapiens with 12 samples.

Results

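The 10 genes followed here have been reported as targets of the microRNA miR-143 in other tissues, and each was read in AGO2 precipitates of K562 cells. The members are FNDC3B, ELK1, IGF1R, ERBB3, LIMK1, DNMT3A, KLF5, CD44, MSI2 and AKT1, and they were chosen by name, as the rows whose list of gene names holds one of them. All 10 were found, each in 1 of the 61782 gene rows. K562 is a human line derived from chronic myeloid leukemia with erythroid features, and the methods of the study name the cells as K562-C/EBPα-ER, which carry an inducible C/EBPα. Per the labels, all cells received a lentivirus and were selected with puromycin, with either the miR-143 vector (pLV-miR-143) or pLV-control. RNA was recovered with an antibody against AGO2 or with IgG (mock), which gives the 4 groups control_IgG, control_AGO, miR143_IgG and miR143_AGO of 3 samples each. The tables hold 1 value per gene and group, the authors' average FPKM, in which fragments are scaled to transcript length and to the mapped fragments of a library. The spread between the 3 samples is therefore unknown, every difference given here lacks a replicate check and a p-value, and depth in fragments is unknown.

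MicroRNAs guide Argonaute proteins to messenger RNAs, mostly by pairing of their seed with the 3′ untranslated region (3′ UTR), and the bound transcript is repressed or degraded. A transcript that gains a guide can thus become more frequent on AGO2 while its total amount falls, and a precipitate alone shows the result of both. miR-143 is transcribed together with miR-145, is abundant in smooth muscle and is low in many tumors. The 10 genes span receptors of growth factors (IGF1R, ERBB3), kinases below them (AKT1, LIMK1), transcription factors (ELK1, KLF5), a DNA methyltransferase (DNMT3A), an RNA-binding protein (MSI2), a receptor for hyaluronan (CD44) and a membrane protein with fibronectin type III repeats (FNDC3B).

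The sequence that links the genes is the seed of miR-143-3p, bases 2 to 8, shown in capitals in the mature RNA (RefSeq, GRCh38.p14, chr5:149428978-149428998, plus strand). The lines under it show 21 bases of sense-strand transcript, as DNA letters from GENCODE 29 (GRCh38), that end opposite the first base of the miRNA, with the seed match in capitals. They are the sites of the genes that differed most between AGO2 precipitates (MSI2, ELK1), of the gene with AGO2 values over 2-fold above the mock in both populations (LIMK1), of the gene in a joined row (ERBB3, its longest match) and of the genes without signal (KLF5, CD44).
hsa-miR-143-3p: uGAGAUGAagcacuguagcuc
MSI2, 7mer-A1, chr17:57677032-57677052, plus strand: ggtgctttcgttgcCATCTCA
MSI2, 7mer-A1, chr17:57679676-57679696, plus strand: tcgagggttgactaCATCTCA
MSI2, 8mer, chr17:57679684-57679704, plus strand: tgactacatctcaTCATCTCA
ELK1, 7mer-A1, chrX:47636760-47636780, minus strand: tctctccagccagcCATCTCA
ELK1, 7mer-m8, chrX:47635953-47635973, minus strand: aggggagagggagTCATCTCt
LIMK1, 8mer, chr7:74122112-74122132, plus strand: tcagcccctgcagTCATCTCA
ERBB3, 8mer, chr12:56103172-56103192, plus strand: atacctagacatcTCATCTCA
KLF5, 8mer, chr13:73076111-73076131, plus strand: actcaagcagatcTCATCTCA
CD44, 8mer, chr11:35230115-35230135, plus strand: ctcttctaagtctTCATCTCA

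A 7mer-m8 (TCATCTC) pairs with the whole seed, an 8mer (TCATCTCA) adds an A opposite the first base, and a 7mer-A1 (CATCTCA) has this A but no pair at base 8. The sense strand of the longest annotated 3′ UTR of each gene was searched, and each match was counted once, under its longest form. All 10 genes held at least 1 match, 15 in all, of which 5 were 8mers, 5 were 7mer-m8 and 5 were 7mer-A1. Of 19151 coding genes with a 3′ UTR, 22.2% held one, and 4.60% held an 8mer against 5 of the 10 members. Targets are commonly proposed from such matches, so that these counts describe how the genes were picked and are no independent result. The share also follows length, from 7.17% of genes with a 3′ UTR under 1000 bases to 63.5% of those from 4000 bases, the class of DNMT3A, FNDC3B, IGF1R and MSI2. In the shortest annotated 3′ UTR, only IGF1R, KLF5 and MSI2 kept a match (9.38% of all genes). This count mostly reflects annotated length. The shortest form has 7087 of 7088 bases in IGF1R and 1655 of 1656 in KLF5. It has 6 bases in FNDC3B, too few for a match, 20 in ERBB3 and 46 in CD44. Of the members without an 8mer in the longest form, FNDC3B alone held one in another of its 5 annotated 3′ UTRs. Which transcript K562 makes is not shown by FPKM per gene.

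The genes differed in number and place of the matches. MSI2 held 3, at 18, 173 and 180 bases after the stop codon of a 3′ UTR of 5168 bases, and the last 2 adjoin each other. ERBB3 held 2 that overlap, at 1126 and 1130 bases of 1450, and it is the 1 gene whose matches share bases. ELK1 held 2 at 63 and 869 bases of 1308, and DNMT3A held 2 7mer-m8 matches at 191 and 1414 bases of 6424 (chr2:25234081-25234101 and chr2:25232858-25232878, minus strand). The remaining genes held 1 each. They are the 8mers of LIMK1 (824 of 1224 bases), KLF5 (238 of 1656) and CD44 (795 of 3069), the 7mer-m8 of FNDC3B (1975 of 4190, chr3:172399437-172399457, plus strand) and AKT1 (395 of 992, chr14:104769939-104769959, minus strand), and the 7mer-A1 of IGF1R (2664 of 7088, chr15:98960092-98960112, plus strand). Each site lies within 1 exon.

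**Figure D1:**
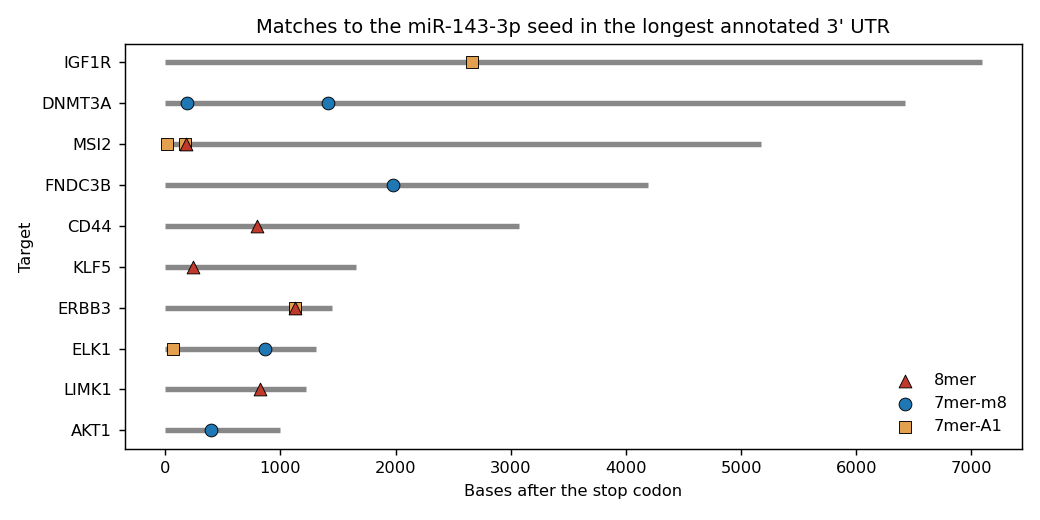
Matches to the miR-143-3p seed along the longest annotated 3′ UTR of the 10 genes, in bases after the stop codon (x axis). Gray bars are the 3′ UTRs to scale, from 992 bases in AKT1 to 7088 in IGF1R, and symbols mark the 15 matches by kind, with the 3 matches of MSI2 all within 180 bases of the stop codon.

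The predicted energy of the duplex of miR-143-3p with the 30 bases up to each site (RNAduplex) ranged from −18.9 kcal/mol in LIMK1 to −8.7 in IGF1R. The median over all 5939 sites was −13.9, and 8.03% of sites were as low as that of LIMK1. Of the 15 sites, 6 were below this median, the others being those of CD44 (−17.0), KLF5 (−15.6) and AKT1 (−15.2), and the first site (−16.9) and the 8mer (−14.9) of MSI2. The share of A and U within 30 bases either side was above the median of all sites (57.6%) at 3 of the 15, those of FNDC3B (69.5%), IGF1R (64.4%) and the first site of DNMT3A (59.3%), and lowest in LIMK1 (27.1%). Of the 15, the site with the strongest predicted pairing thus lay in the most G- and C-rich surroundings. Both measures take in bases just before the site, so they are not independent.

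Which of the published targets were detected in K562 was asked first. Of their 10 rows, 8 reached 1 FPKM in some group and 7 did so in all 4. Both counts include the joined row of ERBB3, which cannot be read as ERBB3 alone. Of 17829 rows of 1 coding gene, which leave out joined rows, 46.7% reached 1 FPKM in some group. KLF5, a zinc finger factor of epithelia and vascular smooth muscle (chr13:73054976-73077542), and CD44 (chr11:35138870-35232402) were listed at 0 in all 4 groups. Both have an 8mer, and nothing can be said here on their binding. As the number of fragments is unknown, a low level of either cannot be told from none. In such bulk material, fewer cells with a transcript and less transcript per cell cannot be told apart either.

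The detected targets lay at very different levels in the precipitates. No input RNA is among the samples, so that these values do not give the total RNA of the cells. AKT1, the serine/threonine kinase below PI3-kinase (chr14:104769349-104795751), had the highest value of the 8 in each group but control_AGO, where LIMK1 was higher. It was at 69.2 FPKM in control_IgG and 59.6 in miR143_IgG, and at 31.3 in control_AGO and 53.5 in miR143_AGO. This placed it between the 89.5th and the 95.4th percentile of coding rows above 0 in each group. Its highest value was 2.21 times its lowest, the narrowest range of the 8.

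LIMK1, a kinase that stabilizes actin by phosphorylating cofilin (chr7:74082933-74122525), was at 12.6 FPKM in control_IgG and 38.1 in control_AGO, and at 4.76 in miR143_IgG and 27.3 in miR143_AGO. Both AGO2 values were above both mock values. FNDC3B (chr3:172039628-172401665) likewise had both AGO2 values above both mock values, at a low level, with 1.62 and 4.27 FPKM in control_IgG and control_AGO and 2.87 and 3.68 FPKM in miR143_IgG and miR143_AGO.

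ELK1, an ETS factor activated by ERK (chrX:47635521-47650604), was at 38.4 FPKM in control_IgG and 12.1 in miR143_IgG, and at 15.6 in control_AGO and 5.05 in miR143_AGO. Each miR-143 value was below its control counterpart. IGF1R, the receptor tyrosine kinase for insulin-like growth factors (chr15:98648539-98964530), was at 27.7 FPKM in control_IgG against 5.72 in miR143_IgG, and at 12.6 FPKM in control_AGO against 8.83 in miR143_AGO. It was likewise lower with miR-143 in both kinds of precipitate.

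MSI2, an RNA-binding protein of hematopoietic stem cells (chr17:57255851-57684685), had the widest range, 15.4 times from lowest to highest. It was at 23.9 FPKM in control_IgG but 1.55 in miR143_IgG, and at 2.81 in control_AGO but 11.4 in miR143_AGO. The high values came from the mock precipitate of control cells and the AGO2 precipitate of miR-143 cells, so that neither the antibody nor the vector alone orders them.

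DNMT3A, which sets new DNA methylation (chr2:25227855-25342590), had the lowest maximum of the 8 and the lowest values on AGO2. It was at 1.67 FPKM in control_IgG and 4.07 in miR143_IgG, but at 0.536 in control_AGO and 0.947 in miR143_AGO. Both AGO2 values were under 1 FPKM, and the gene was therefore left out of the comparison between AGO2 precipitates.

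ERBB3, the neuregulin receptor that signals mainly as a partner of ERBB2, could not be read on its own. Its row also carries PA2G4 and the clone name RP11-603J24.9, and ERBB3 (chr12:56076799-56103505) and PA2G4 (chr12:56104319-56113907) neighbor each other on the plus strand. The joined row was at 60.4 FPKM in control_IgG and 43.1 in miR143_IgG, and at 7.73 in control_AGO and 13.2 in miR143_AGO. PA2G4, which encodes a protein of growing cells that binds ERBB3, holds a 7mer-A1 of its own, and the value cannot be assigned to either gene.

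**Figure D2:**
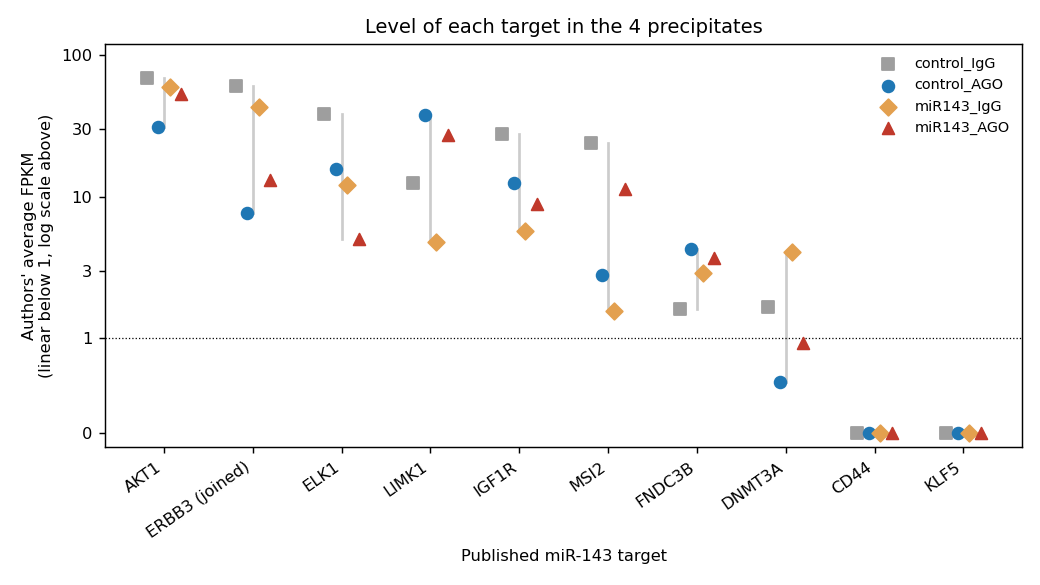
Authors' average FPKM of the 10 genes (y axis, linear below 1 and logarithmic above) in control_IgG (gray squares), control_AGO (blue circles), miR143_IgG (orange diamonds) and miR143_AGO (red triangles), with genes in order of their highest value. Each point is 1 average of 3 samples without an error, gray lines span the range, the dotted line marks 1 FPKM, and CD44 and KLF5 are at 0 throughout.

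None of the 8 detected rows had its highest value in miR143_AGO, the group in which 20.2% of 11914 rows of at least 1 FPKM peaked. The highest value was in control_IgG for 5 (ELK1, IGF1R, MSI2, AKT1 and the ERBB3 row), against 29.0% of all rows. It was in control_AGO for LIMK1 and FNDC3B, against 19.0% of all rows, and in miR143_IgG for DNMT3A, against 31.8%. FPKM is scaled to the total of each library, and the order across AGO2 and mock precipitates moves with what else they hold. The neighbors in each order cannot be separated, as their spread is not known.

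The labels and the depth were checked once. MIR143 itself had 0 FPKM without its vector, and with it 44781 in the mock and 118393 in the AGO2 precipitate. Of 11 erythroid genes on 9 rows, all rows reached 1 FPKM, with sums of 504 to 1042 FPKM per group. Of 16 rows for 15 genes of other cell types, 9 were listed at 0 throughout (among them ACTA2, COL1A2, CD3E, PECAM1 and CDH1) and 3 reached 1 FPKM (CNN1, DES and EPCAM). The 16 rows summed to 3.74 FPKM in control_IgG and 17.6 in miR143_IgG, and to 14.3 in control_AGO and 34.2 in miR143_AGO, and the part of these markers in the results was not tested. The smallest products of FPKM and transcript length, which fall as depth rises, were 12.9 times higher in control_IgG than in miR143_AGO, against 1.09 times in control_AGO and 1.64 times in miR143_IgG. Of the targets, FNDC3B and DNMT3A lay closest to this edge, at 18.2 and 22.5 times its value in control_IgG, and AKT1 in miR143_AGO lay farthest, at 3836 times.

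AGO2-bound transcript of each target with and without the miR-143 vector was compared by the ratio of miR143_AGO to control_AGO, as log2 of (FPKM + 1) over (FPKM + 1). Of the 7 targets that could be compared, MSI2 was at least 2-fold higher, ELK1 was at least 2-fold lower, and 5 lay in between. Over all 9798 rows compared, 17.7% were at least 2-fold higher and 14.1% at least 2-fold lower, so that 1 of 7 in each direction is near the background. The study used a threshold of 10-fold for increases only. On the FPKM + 1 scale, no target differed 10-fold in either direction, as 1.03% of rows did. The median log2 ratio of the 7 was −0.17, against 0.17 over all rows, and 3 of the 7 were above 0, against 57.5% of all rows.

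MSI2 had a log2 ratio of 1.71, and its plain ratio was 4.07. This was above 95.6% of all rows compared. ELK1 had a log2 ratio of −1.45 and 7.49% of rows were lower, with a control_AGO value 3.09 times that in miR143_AGO. AKT1 (0.75) and the ERBB3 row (0.70) were above 0, while FNDC3B (−0.17), LIMK1 (−0.46) and IGF1R (−0.47) were below. DNMT3A, not compared, had a ratio of 0.34 between values under 1 FPKM.

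The range of ratios depends on the level. Among rows whose mean over both AGO2 groups was from 1 to under 5 FPKM, where FNDC3B lies (3.97), 33.9% differed at least 2-fold. The share was 27.0% from 5 to under 20 FPKM, the level of MSI2 (7.12), ELK1 (10.3), the ERBB3 row (10.4) and IGF1R (10.7), and 23.1% from 20 FPKM, the level of LIMK1 (32.7) and AKT1 (42.4).

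The number and kind of seed matches did not order the ratios. Of the compared single-gene rows with an 8mer, MSI2 (3 matches) had 1.71 and LIMK1 (1 match) −0.46. The ERBB3 row (0.70) could not be placed, as ERBB3 holds an 8mer and PA2G4 a 7mer-A1 and no 8mer. ELK1, with 2 matches and no 8mer, had the lowest value. Those with 1 shorter match were at 0.75 (AKT1), −0.17 (FNDC3B) and −0.47 (IGF1R). These kinds are those of the longest 3′ UTR, and FNDC3B held an 8mer in another annotated form.

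The mock precipitates give the background of the same contrast without the AGO2 antibody. Of 8 targets compared between miR143_IgG and control_IgG, 4 were at least 2-fold lower, namely MSI2 (log2 ratio −3.29), IGF1R (−2.09), ELK1 (−1.59) and LIMK1 (−1.24), and 0 were at least 2-fold higher. Over 10172 rows, 26.8% were 2-fold lower and 36.2% 2-fold higher. The median of the 8 was −0.86, against 0.17 over all rows. The remaining values were −0.48 for the ERBB3 row, −0.21 for AKT1, 0.56 for FNDC3B and 0.93 for DNMT3A. DNMT3A was past 2-fold with pseudocounts of 0.1 (1.24) and 0.01 (1.28) and with groups scaled to the same median.

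On this FPKM + 1 scale no target passed 10-fold, as 8.87% of rows did, and MSI2 came closest, with 3.33% of rows lower. Without the added 1, its control_IgG value was 15.4 times that in miR143_IgG. The direction was opposite to that between the AGO2 precipitates. For ELK1, the plain ratios of both pairs were alike, with 3.18 times less in miR143_IgG than in control_IgG and 3.09 times less on AGO2.

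**Figure D3:**
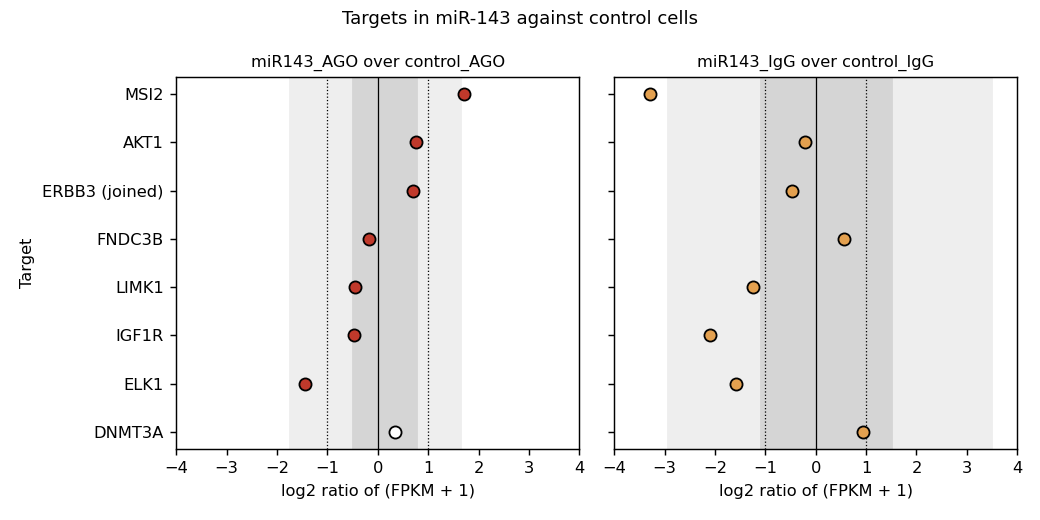
Log2 ratio of (FPKM + 1) between miR-143 and control cells (x axis) for the 8 detected targets (y axis), in AGO2 precipitates (left) and mock precipitates (right). Dark and light bands span the quartiles and the central 90% of all rows compared, dotted lines mark 2-fold, the open circle is DNMT3A, which was not compared on the left, and MSI2 lies at 1.71 on the left and at −3.29 on the right.

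Enrichment on AGO2 over the mock precipitate was then read within each cell population. In control cells, LIMK1 (log2 ratio 1.52) and FNDC3B (1.01) were at least 2-fold higher on AGO2, and 5 of the 8 were at least 2-fold lower. These were the ERBB3 row (−2.81), MSI2 (−2.71), ELK1 (−1.25), AKT1 (−1.12) and IGF1R (−1.07), while DNMT3A was at −0.80, and at −1.48 and −1.62 with pseudocounts of 0.1 and 0.01. Over 9919 rows, 34.5% were 2-fold higher, 36.2% were 2-fold lower and 9.36% differed 10-fold. With groups scaled to the same median, upper quartile or sum of coding rows, 2 of these 5, MSI2 and the ERBB3 row, remained 2-fold lower, and those of ELK1, AKT1 and IGF1R moved to between −0.86 and −0.46.

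In miR-143 cells, LIMK1 (2.30) and MSI2 (2.29) were at least 2-fold higher on AGO2, each above 93.6% of all rows. The ERBB3 row (−1.64), DNMT3A (−1.38) and ELK1 (−1.11) were at least 2-fold lower, and IGF1R (0.55), FNDC3B (0.28) and AKT1 (−0.15) lay in between. ELK1 was no longer 2-fold lower under any of the 3 scalings (−0.86 to −0.67). Over 10643 rows, 26.6% were 2-fold higher, 33.5% were 2-fold lower and 5.27% differed 10-fold. LIMK1 was the only one of the 8 at least 2-fold higher on AGO2 in both populations, 3.02 times in control cells and 5.74 times in miR-143 cells by plain ratios, and the first of these was measured without the miR-143 vector.

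**Figure D4:**
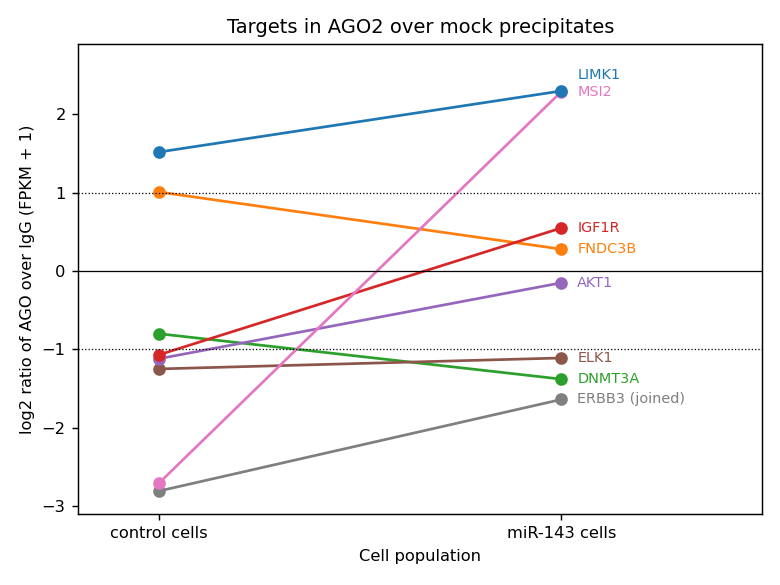
Log2 ratio of AGO over IgG, each as FPKM + 1 (y axis), without and with the miR-143 vector (x axis) for the 8 detected targets, joined by a line for each gene. Dotted lines mark 2-fold, points are ratios of averages without an error, and MSI2 goes from −2.71 to 2.29 while LIMK1 is above 2-fold at both ends.

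The ratio of these 2 enrichments sets the AGO2 difference against that of the mock precipitates. MSI2 (4.99), IGF1R (1.62) and the ERBB3 row (1.17) were at least 2-fold higher, and 0 of the 8 were at least 2-fold lower. With groups scaled to the same median the ERBB3 row was at 0.85, with the same upper quartile AKT1 was at 1.01, and with a pseudocount of 0.01 FNDC3B was at −1.03, each across 2-fold. As first computed, AKT1 was at 0.97, LIMK1 at 0.78, ELK1 at 0.14, DNMT3A at −0.58 and FNDC3B at −0.73. Over 11914 rows, 29.0% were 2-fold higher and 33.5% 2-fold lower, and the standard deviation across rows was 2.08 on the log2 scale. MSI2 was the only target past 10-fold, as were 10.3% of rows, and it stood above 99.2% of them, with a plain ratio of 62.8.

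The parts of the MSI2 value were unequal, with 1.71 from the AGO2 pair less −3.29 from the mock pair. For IGF1R the AGO2 pair was at −0.47, and the value above 0 came wholly from the mock pair (−2.09). Both genes were highest in control_IgG, the group with the highest edge in the check of depth. The ratio of ELK1 was near 0 in this form, as its AGO2 and mock pairs had similar values.

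Other published targets were taken from a list of 20 further genes written from general knowledge. Of their 20 rows, 12 reached 1 FPKM in some group and 5 were listed at 0 throughout (PTGS2, MMP13, TLR2, IGFBP5 and JAG1). In the AGO2 pair, 0 of the 10 compared were 2-fold higher and 1 was 2-fold lower. This was MAPK7, the gene of the kinase ERK5, at 36.9 FPKM on AGO2 with pLV-control and 14.2 with pLV-miR-143, a log2 ratio of −1.32. Its mock values were 6.69 FPKM with pLV-control and 0.0988 with pLV-miR-143, so that its AGO over IgG was 2.30 in control and 3.79 in miR-143 cells, and its corrected ratio was 1.48, in the other direction. The mock value of 0.0988 is far below the added 1, which makes this corrected ratio smaller than one of plain values. The study reported ERK5 mRNA as enriched on AGO2 in miR-143 cells, from sequencing and by semiquantitative PCR. The median of the 10 was 0.02, against 0.17 over all rows. The most abundant single-gene row of the list, FSCN1, an actin-bundling protein, was at 51.0 to 75.4 FPKM in the 4 groups.

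Family members of the 10 genes show what relatives outside the published list did. Of 18 rows for 17 genes, 12 reached 1 FPKM. In the AGO2 pair, 1 of 12 was 2-fold higher and 0 were 2-fold lower, with a median log2 ratio of −0.25. The 1 gene was IGF2R, the receptor that clears IGF2, at 3.07 FPKM in control_AGO and 11.4 in miR143_AGO, a log2 ratio of 1.61. AKT2 was at 99.3 FPKM in control_AGO and 53.1 in miR143_AGO (−0.89), the opposite direction to AKT1. MSI1, the other Musashi gene, and EGFR were listed at 0 in all groups.

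By the corrected ratio, 4 of the 12 relatives were 2-fold higher and 4 were 2-fold lower. INSR, ELK4 and LIMK2 had the largest ratios of mock values. INSR, the insulin receptor, was at 25.7 FPKM in control_IgG and at 1.21 to 2.79 in the other groups. ELK4 was at 35.4 FPKM in control_IgG and at 1.76 to 2.60 elsewhere. Their log2 ratios in the AGO2 pair were 0.18 and −0.18, and set against the mock pair they were 3.77 and 3.54. LIMK2, a kinase of the same family as LIMK1, went the other way, from 0 FPKM in control_IgG to 12.8 in miR143_IgG, with 0.12 in the AGO2 pair and −3.67 when corrected. A corrected ratio past 2-fold was thus also found where the AGO2 pair was within 2-fold.

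**Figure D5:**
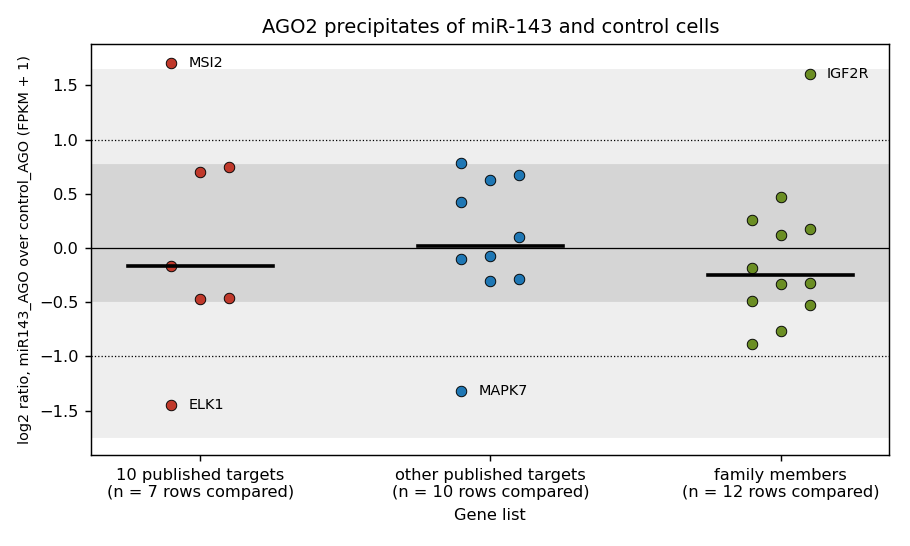
Log2 ratio of miR143_AGO over control_AGO, each as FPKM + 1 (y axis), for the 7 members, 10 other published targets and 12 family members that could be compared (x axis). Points are gene rows, black lines are medians (−0.17, 0.02 and −0.25), bands span the quartiles and the central 90% of all rows, dotted lines mark 2-fold, and MSI2, ELK1, MAPK7 and IGF2R are named as the rows past it.

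The rows nearest to 6 of the targets over the 4 groups, by Euclidean distance of log2(FPKM + 1) among the 17828 other rows of 1 coding gene, were EDC3 for MSI2 (0.53), PTPRF for ELK1 (0.63), ALDH9A1 for IGF1R (0.37), SYNGR3 for LIMK1 (0.46), LSM2 for AKT1 (0.35) and ACAP2 for FNDC3B (0.30). EDC3 was at 30.2 FPKM in control_IgG and 2.23 in miR143_IgG, and at 3.48 in control_AGO and 11.9 in miR143_AGO, the same order of groups as MSI2. With 4 values per gene, such likeness is a description.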

How the data were processed

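RNA-immunoprecipitation was sequenced for 12 samples, whose titles give the 4 groups. The authors deposited FPKM values, averaged over the 3 samples of each group, in 1 table per group. The submitters' processing notes name TopHat, Cufflinks and hg38. Program versions and the annotation were not given in the sources used here. The labels describe removal of ribosomal RNA and random priming, the methods a TruSeq kit.

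Log2 ratios were computed here with a pseudocount of 1, over rows of at least 1 FPKM in a compared group, and understate the change of low genes. A fold of 2 or of 10 was counted in either direction, while the study used 10-fold for increases. The test planned for values per replicate (limma) was not used, as the tables hold averages. Levels in AGO2 and mock precipitates, and the ratio of both, share groups across the comparisons.

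GENCODE release 29 (GRCh38), matched by symbol, gave coordinates and 3′ UTRs, which may not be the annotation of the authors. Duplex energies were predicted with ViennaRNA 2.7.2, and tables were handled with pandas 2.3.3. The ratio and site searches were tested on simulated data. Members and lists were chosen with earlier results of these data known. The genes named are the members, MIR143, list genes past 2-fold between AGO2 precipitates and the nearest rows, of which that of the ERBB3 row is not reported here. FSCN1, AKT2, MSI1, EGFR, INSR, LIMK2, ELK4, ERBB2, DNMT1, DNMT3B and the list genes at 0 were chosen for mention with their values known. Alternatives were other pseudocounts, filters, scalings and site definitions. Rows of several names were kept and stated.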

Additional observations from a re-analysis of the deposited data

Results flagged for a closer look

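For MSI2 and IGF1R the ratio of AGO over IgG lay below 0 in one cell population and above 0 in the other. For MSI2 the log2 ratio of AGO over IgG was −2.71 with pLV-control and 2.29 with pLV-miR-143, a difference of 4.99. For IGF1R it was −1.07 and 0.55, a difference of 1.62. The value of IGF1R in miR-143 cells was within 2-fold, and that in control cells came to within 2-fold (−0.69 to −0.46) when groups were scaled to the same median, upper quartile or coding sum. Neither difference was tested, since each group gives 1 average. Both genes had a higher value in control_IgG than in any other group. The change of sign was not particular to them. Among the family members, INSR (−2.99 and 0.78), ELK4 (−3.34 and 0.20) and ERBB2 (−0.09 and 1.30) rose across 0. So did the row of DNMT1 (−0.70 and 2.36), which is joined with S1PR2. LIMK2 (2.12 and −1.55) and DNMT3B (0.87 and −0.62) fell across 0, and the other relatives compared kept their sign. The share of all rows that changed sign was not counted.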

How the results depend on the processing

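No paired analysis was possible because each deposited column holds 1 average of a group and carries no replicate number, and alternatives that leave out a replicate were not run for the same reason.

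At the 10-fold threshold, the number of targets that differed went from 2 to 0 between AGO2 precipitates, from 4 to 0 between mock precipitates, from 7 to 0 and from 5 to 0 for AGO over IgG in control and miR-143 cells, and from 3 to 1 for the corrected ratio. For AGO over IgG in control cells the count fell from 7 to 4 with the same median, the same upper quartile or the same sum of coding rows, which shifted the median of all rows by 0.53, 0.33 and 0.44. Seed matches were found in 3 of the 10 genes with the shortest 3′ UTR instead of all 10, and that of FNDC3B (6 bases) is too short for one. The other counts stayed within 1.5 times under pseudocounts of 0.1 and 0.01, other filters, scaling, summing of rows with one name and removal of the joined row. MSI2 higher and ELK1 lower were the 2 targets past 2-fold between AGO2 precipitates under each of these alternatives. Of 195 ratios of single targets recomputed, 175 stayed on their side of 2-fold, 20 crossed it and 0 of those past 2-fold changed sign. The crossings were those of DNMT3A, ELK1, IGF1R, AKT1, FNDC3B and the ERBB3 row, given beside their values. The number of fragments behind each value is unknown.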
